A study of Mus musculus with 9 samples.

Results

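The subject is a set of 39 genes whose proteins build ribosomes in the nucleolus, read in mouse macrophages that had been given lipopolysaccharide and then an organotin. The 39 were fixed as a list of gene names and not by a cut on their values. The list was chosen with earlier results of these data known, so it was not blind to them. All 39 were among the 18193 genes measured. Each gene was read on the probe set with the highest mean over all 9 arrays among those annotated to that gene alone, and 28 of the 39 had more than 1 such probe set. They were sorted into RNA polymerase I subunits (3 genes), proteins of small nucleolar ribonucleoproteins (snoRNPs, 9 genes), small subunit factors (10), large subunit factors (13) and general nucleolar proteins (4).

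The cells were cultured from femoral marrow of C57BL6 mice aged 6 to 12 weeks and used on day 6. All 3 groups received LPS at 33 ng/mL, so that no group shows the unstimulated state. After 3 h of LPS, the groups were given saline (labelled LPS), 1.25 µM trimethyltin hydroxide (TMT OH, labelled LPS+TMT) or 10 µM triethyltin bromide (TET Br, labelled LPS+TET) for a further 6 h. Each group had 3 biological replicates on Affymetrix Mouse Genome 430 2.0 arrays, and no source used here says whether these came from separate mice, so the tests speak only of the spread among these cultures, which may be technical. The compounds differ in the alkyl group on tin, methyl or ethyl, and also in dose, so a difference between them cannot be told apart from a difference of dose.

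Ribosome production starts with RNA polymerase I, which copies the ribosomal DNA into a long precursor RNA. Box C/D snoRNPs guide the methylation of that RNA and box H/ACA snoRNPs guide the conversion of uridine to pseudouridine, while large sets of assembly factors cut and fold the precursor into the small and large subunits. The genes of this pathway are well known as targets of the transcription factor MYC, which binds the sequence CACGTG (an E-box) together with its partner MAX.

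Of the 39 genes, 34 matched a promoter sequence in the RefSeq table (build GRCm38.p6, 250 bases before to 50 bases after a transcript start), and 7 of these (20.6%) held CACGTG, against 8.09% of 27025 genes with such a sequence. The motif reads the same on both strands. The 7 stretches of 30 bases are shown because each holds the motif, in capitals, within 60 bases of the start; they read 5′ to 3′ on the strand of the gene.
Nop2, chr6:125131811-125131840, plus strand: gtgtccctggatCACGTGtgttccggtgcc
Ltv1, chr10:13193092-13193121, minus strand: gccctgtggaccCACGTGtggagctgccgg
Pes1, chr11:3963965-3963994, plus strand: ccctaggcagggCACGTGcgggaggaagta
Mybbp1a, chr11:72441347-72441376, plus strand: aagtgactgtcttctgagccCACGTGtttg
Tsr1, chr11:74898092-74898121, plus strand: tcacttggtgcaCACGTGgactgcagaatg
Nle1, chr11:82908355-82908384, minus strand: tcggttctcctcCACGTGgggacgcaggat
Wdr43, chr17:71616220-71616249, plus strand: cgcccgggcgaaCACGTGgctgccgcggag
In Nop2 the motif began 60 bases before the start, and in the other 6 it began 2 (Pes1) to 40 (Mybbp1a) bases after it. A match describes the letters in this window and shows no binding.

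After TMT most of the set fell. Of the 39 genes, 32 (82.1%) fell and 0 rose, with an adjusted p under 0.05 as the threshold. Over all genes, 27.8% changed under TMT, with 13.4% fallen and 14.3% risen. Since 38 of the 39 lay at or above the median signal of all genes, the 9097 genes at or above that level are the closer background: 46.2% of them changed, with 22.1% fallen and 24.1% risen. With limma, 37 of the 39 passed an unadjusted p of 0.05 (35.7% of all genes did), all of them lower. The fitted change was below 0 in 39 of 39 genes, with a median of −0.68 on the log2 scale against 0.01 over all genes, and it ranged from −1.86 (Nop58) to −0.05 (Polr1c). In 36 genes all 3 TMT arrays lay below all 3 saline arrays, as they did in 21.0% of all genes, and in 0 genes did they lie above (23.7% of all genes). Replicate by replicate, the median gene of the set lay 0.63, 0.61 and 0.58 below the saline mean, where the median of all genes lay at 0.02, 0.02 and 0.00.

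After TET fewer genes of the set passed. Of the 39 genes, 17 (43.6%) fell, 3 (7.69%) rose and 19 did not pass, and the 51.3% that changed lay close to the 50.8% of all genes. Over all genes 23.4% fell and 27.4% rose under TET, but among those at or above the median signal 64.9% changed, with 41.3% fallen and 23.6% risen. The share of falls in the set (43.6%) was close to the 41.3%, and the share of rises (7.69%) lay below the 23.6%. The median change of the set was −0.23, against 0.09 over all genes and −0.19 over the genes at or above the median signal. Changes ranged from −1.54 (Polr1b) to 1.40 (Gnl3), and the called changes of at least 2-fold were 4 falls and 2 rises (7.17% and 6.66% of all genes). TMT gave 11 such falls and 0 such rises (4.05% and 3.81% of all genes). The TET arrays lay wholly below saline in 20 genes and wholly above it in 5 (26.1% and 32.5% of all genes). With each array centred on its own median, 22 genes fell and 2 rose under TET.

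**Figure D1:**
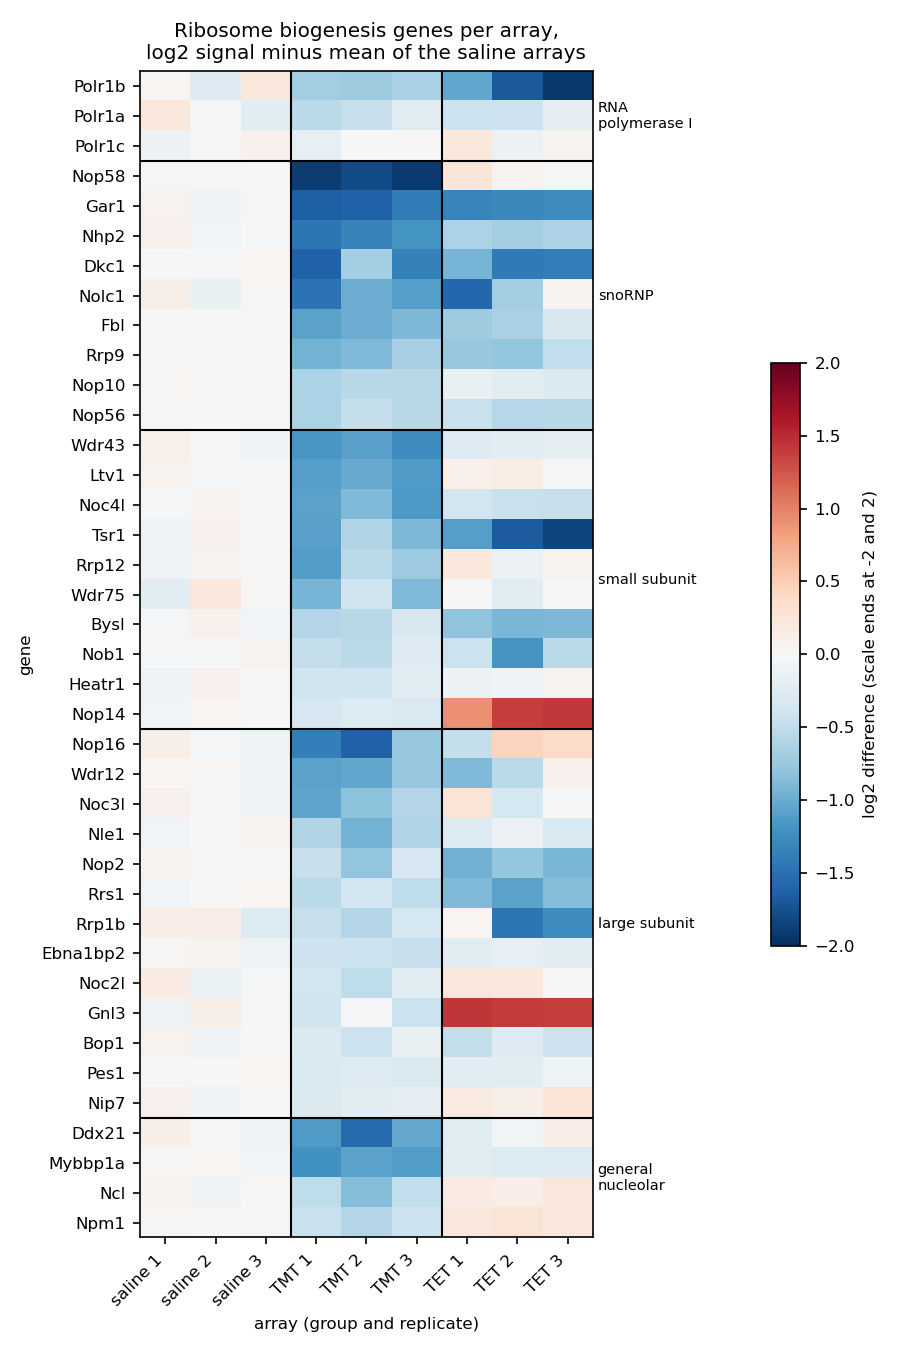
Log2 signal of each of the 39 genes on each of the 9 arrays, minus the mean of the 3 saline arrays (blue, lower; red, higher), with genes sorted by class and, within a class, by their change under TMT. The TMT columns are blue or near white for every gene, while the TET columns hold both blue genes and the red rows of Gnl3 and Nop14.

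The calls under both compounds are set side by side by gene, and since the comparisons share the saline arrays, a call in both is not independent evidence. Those that fell under each were Polr1b, Nop56, Fbl, Rrp9, Dkc1, Gar1, Nhp2, Nop10, Noc4l, Bysl, Tsr1, Nop2, Rrs1 and Mybbp1a. Nob1, Bop1 and Rrp1b fell under TET and did not pass under TMT, and Npm1 fell under TMT and rose under TET. Nop14 and Gnl3 rose under TET and did not pass under TMT, while Polr1c and Nip7 passed in neither. The remaining genes fell under TMT and did not pass under TET. In the direct test of TET against TMT, 23 genes were higher under TET, 5 were lower (Polr1b, Bysl, Tsr1, Nop2 and Rrs1) and 11 did not pass. Over all genes 51.8% passed that test, with 28.1% higher and 23.7% lower. Among genes at or above the median signal 66.6% did, with 25.1% higher and 41.5% lower. The median difference was 0.43 in the set, 0.11 over all genes and −0.18 over the genes at or above the median signal. In 6 genes (Nop58, Gnl3, Nop14, Nop16, Ddx21 and Ltv1) TET lay at least 2-fold above TMT, as it did in 6.93% of all genes. The TET arrays lay wholly above the TMT arrays in 24 genes and wholly below in 4 (32.5% and 24.5% of all genes).

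**Figure D2:**
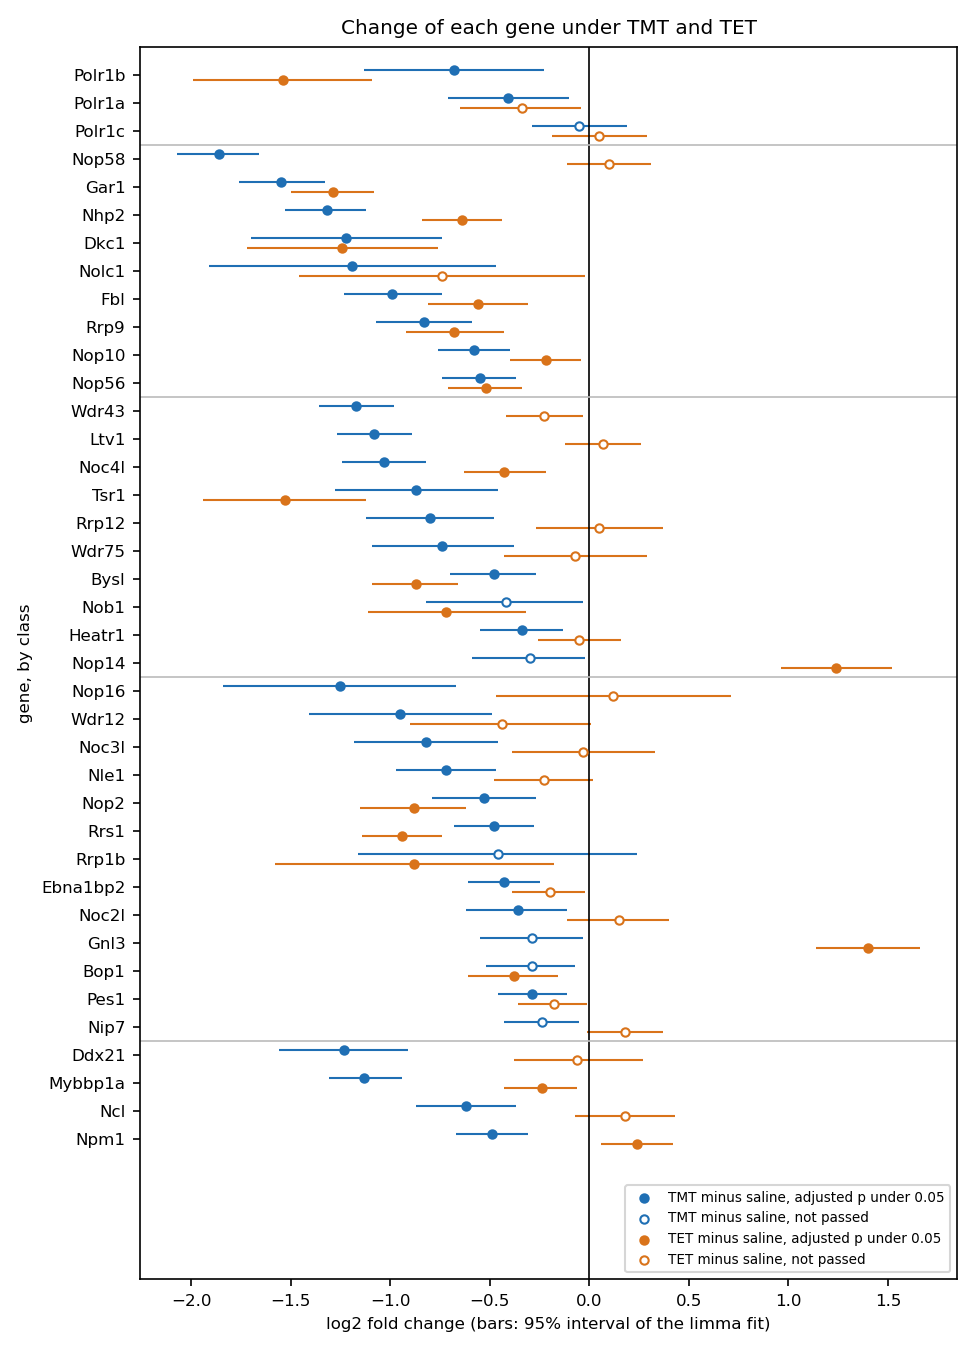
Log2 fold change of each gene against saline under TMT (blue) and TET (orange), with the 95% interval from the fit over all genes; filled points passed an adjusted p of 0.05. Blue points lie at or left of −0.05 for all 39 genes, and orange points run from −1.54 to 1.40.

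Of the 3 RNA polymerase I subunits, 2 fell and 0 rose under TMT (median −0.41), and 1 fell and 0 rose under TET (median −0.34). Among genes at or above the median signal, 22.1% fell under TMT and 41.3% under TET, shares that also stand beside the classes below. The 33.3% of these subunits that fell under TET lay below that share. Polr1b, the second-largest subunit, read 6.43, 6.14 and 6.61 in saline, 5.70, 5.68 and 5.75 under TMT, and 5.35, 4.72 and 4.47 under TET. The 3 groups did not overlap, and TET lay lowest. The only probe set of Polr1b had a mean signal of 5.65, below the median gene level of 6.82, and no other probe set checks it. Polr1b fell 1.61-fold under TMT (log2 fold change −0.68, SE 0.20, adjusted p = 0.028) and 2.92-fold under TET (−1.54, SE 0.20, adjusted p = 1.3e-04), and TET lay below TMT (−0.86, adjusted p = 0.005). Its TMT call was lost without saline replicate 1 or 3 or any TMT array (adjusted p 0.063 to 0.11). Polr1a, the largest subunit, fell by 0.41 under TMT at the edge of the threshold (SE 0.14, adjusted p = 0.049) and did not pass under TET (−0.34, adjusted p = 0.059). Under TET it passed without saline replicate 3 or TET replicate 3 (adjusted p 0.032 and 0.040), after centring (0.030) and over genes at or above the median level (0.047). Its groups overlapped in both comparisons. That TMT call was lost without saline replicate 1 or 2, TMT replicate 1 or 2, or TET replicate 1 or 2 (adjusted p 0.052 to 0.19), and the mean over its probe sets changed by −0.10 (adjusted p = 0.44). Polr1c, shared with RNA polymerase III, passed in neither comparison (−0.05 under TMT, 95% interval −0.29 to 0.19, and 0.05 under TET, −0.19 to 0.29).

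All 9 snoRNP genes fell under TMT, with a median change of −1.19, and 7 of the 9 fell under TET, with a median of −0.64. Among genes at or above the median signal, 22.1% fell under TMT and 41.3% under TET. Nop58, a core protein of box C/D particles, read 11.24, 11.28 and 11.27 in saline, 9.36, 9.48 and 9.35 under TMT, and 11.51, 11.34 and 11.24 under TET. The TMT arrays stood alone, and the TET arrays overlapped saline. Nop58 fell 3.64-fold under TMT (−1.86, SE 0.09, adjusted p = 4.3e-07), while the TET change was 0.10 (95% interval −0.11 to 0.31, adjusted p = 0.39). TET lay 3.90-fold above TMT (1.96, adjusted p = 1.4e-07). Its partner in the same particle behaved otherwise. Nop56 fell by 0.55 under TMT (adjusted p = 5.7e-04) and by 0.52 under TET (adjusted p = 5.1e-04), and the difference between the compounds was 0.03 (95% interval −0.15 to 0.22).

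The other box C/D proteins fell under both compounds. Fbl, the methyltransferase fibrillarin, fell 1.98-fold under TMT (−0.99, SE 0.11) and 1.47-fold under TET (−0.56, SE 0.11). Rrp9, a protein of the U3 particle that guides precursor cutting, read 7.89, 7.89 and 7.93 in saline, 6.96, 7.02 and 7.24 under TMT, and 7.14, 7.13 and 7.41 under TET. Both organotin groups lay below saline and overlapped each other, and the changes were −0.83 (adjusted p = 2.2e-04) and −0.68 (adjusted p = 5.1e-04). Nolc1, a phosphoprotein that accompanies snoRNPs, fell under TMT by 1.19 (SE 0.32, adjusted p = 0.019), a call lost without saline replicate 1 or 3 or TMT replicate 1 (adjusted p 0.060 to 0.077). Under TET it did not pass (−0.74, adjusted p = 0.081), with array values of 8.39, 9.27 and 10.01, the widest spread of the set (SD 0.81, n = 3). Without TET replicate 3 its change was −1.13 (adjusted p = 0.0043).

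The 4 proteins of box H/ACA particles fell under both compounds. Dkc1, the pseudouridine synthase dyskerin, read 11.17, 11.13 and 11.20 in saline, 9.55, 10.48 and 9.81 under TMT, and 10.24, 9.75 and 9.79 under TET. Both organotin groups lay below saline, TMT replicate 2 stood nearest to it, and the folds were 2.33 (adjusted p = 0.0016) and 2.37 (adjusted p = 8.6e-04). Gar1 read 11.17, 10.99 and 11.12 in saline, 9.46, 9.48 and 9.69 under TMT, and 9.77, 9.81 and 9.83 under TET. It fell 2.92-fold under TMT (−1.55, SE 0.09, adjusted p = 1.5e-06) and 2.45-fold under TET (−1.29, SE 0.09, adjusted p = 2.5e-06). The probe set of Gar1 may bind related transcripts. Its groups did not overlap in any comparison, but the call of TET above TMT (0.26, adjusted p = 0.044) was lost in 8 of the 9 fits without 1 array, all but that without TMT replicate 3 (adjusted p 0.053 to 0.15 in those 8), and after centring (0.20, adjusted p = 0.12). Nhp2 read 11.09, 10.96 and 10.98 in saline, 9.57, 9.67 and 9.82 under TMT, and 10.38, 10.33 and 10.39 under TET. Nhp2 took the place between: it fell 2.50-fold under TMT and 1.56-fold under TET, and TET lay above TMT by 0.68 (SE 0.09, adjusted p = 1.4e-04). On the probe sets that should bind no related transcript, the TET change of Nhp2 was −0.42 and did not pass (adjusted p = 0.051). Nop10, the smallest protein of the particle, fell by 0.58 under TMT (adjusted p = 3.4e-04) and by 0.22 under TET (adjusted p = 0.040). The TET call of Nop10 was lost in 7 of the 9 fits without 1 array (without any saline array, TMT replicate 1 or 3, or TET replicate 2 or 3, adjusted p 0.055 to 0.11).

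Small subunit factors gave 8 falls of 10 under TMT, with a median of −0.77, and 4 falls and 1 rise under TET, with a median of −0.15. The 40.0% that fell under TET lay close to the 41.3% of genes at or above the median signal. Wdr43, part of the complex that joins precursor transcription to its first cuts and a gene with CACGTG near its start, read 11.69, 11.57 and 11.51 in saline, 10.43, 10.50 and 10.33 under TMT, and 11.33, 11.37 and 11.39 under TET. It fell 2.25-fold under TMT (−1.17, SE 0.09, adjusted p = 5.3e-06) and did not pass under TET (−0.23, SE 0.09, adjusted p = 0.051), although its TET arrays lay below saline. That call was gained without TMT replicate 2 (adjusted p = 0.047). Ltv1, which accompanies the late small subunit out of the nucleus and also carries the motif, read 10.28, 10.18 and 10.18 in saline, 9.11, 9.20 and 9.08 under TMT, and 10.31, 10.36 and 10.17 under TET. The TMT arrays again stood alone. Ltv1 fell 2.11-fold under TMT (−1.08, adjusted p = 8.7e-06), its TET change was 0.07 (95% interval −0.12 to 0.26), and TET lay above TMT by 1.15 (adjusted p = 2.9e-06).

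Tsr1 showed the opposite order. This factor of late small subunit assembly read 10.49, 10.67 and 10.59 in saline, 9.50, 9.98 and 9.68 under TMT, and 9.48, 8.92 and 8.75 under TET. It fell 1.83-fold under TMT (−0.87, SE 0.18, adjusted p = 0.0051) and 2.90-fold under TET (−1.53, SE 0.18, adjusted p = 7.6e-05), with TET below TMT by 0.67 (adjusted p = 0.012). Bysl (bystin) read 8.81, 8.94 and 8.80 in saline, 8.27, 8.29 and 8.53 under TMT, and 8.04, 7.93 and 7.95 under TET. The 3 groups of Bysl were in the same order as those of Tsr1 and did not overlap. The changes of Bysl were −0.48 and −0.87 (SE 0.10 in both), and its difference between the compounds (−0.39, adjusted p = 0.0071) was lost after quantile normalization was applied again (−0.21, adjusted p = 0.10). The other probe set of Bysl did not pass under TMT (−0.03, adjusted p = 0.89 in the limma fit over all probe sets). Under TET it fell by 0.94 (adjusted p = 3.8e-05). Noc4l read 12.60, 12.69 and 12.63 in saline, 11.57, 11.76 and 11.49 under TMT, and 12.26, 12.19 and 12.18 under TET. It fell 2.04-fold under TMT and 1.35-fold under TET, and all 4 of its probe sets fell in both comparisons.

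Nop14, which binds Noc4l in the early small subunit particle, moved apart from it. Nop14 read 9.17, 9.27 and 9.23 in saline, 8.89, 8.95 and 8.92 under TMT, and 10.14, 10.61 and 10.63 under TET. Every TET array lay above every other array, and TET raised it 2.36-fold (1.24, SE 0.13, adjusted p = 2.4e-05). Under TMT its 3 arrays lay just below saline and it did not pass (−0.30, adjusted p = 0.11). It passed under TMT without TET replicate 1 (adjusted p = 0.012) and with the 6 arrays of that comparison alone (adjusted p = 0.0098). Among the other small subunit genes, Rrp12 (−0.80), Wdr75 (−0.74) and Heatr1 (−0.34) fell under TMT, with TET changes of 0.05, −0.07 and −0.05 that did not pass. The Heatr1 call under TMT was lost without saline replicate 2 or 3 or TMT replicate 1 or 2 (adjusted p 0.066 to 0.093). Nob1, the nuclease that makes the final cut of the small subunit RNA, fell under TET (−0.72, adjusted p = 0.0069) and did not pass under TMT (−0.42, adjusted p = 0.11). It passed under TMT without TET replicate 2 (adjusted p = 0.011).

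**Figure D3:**
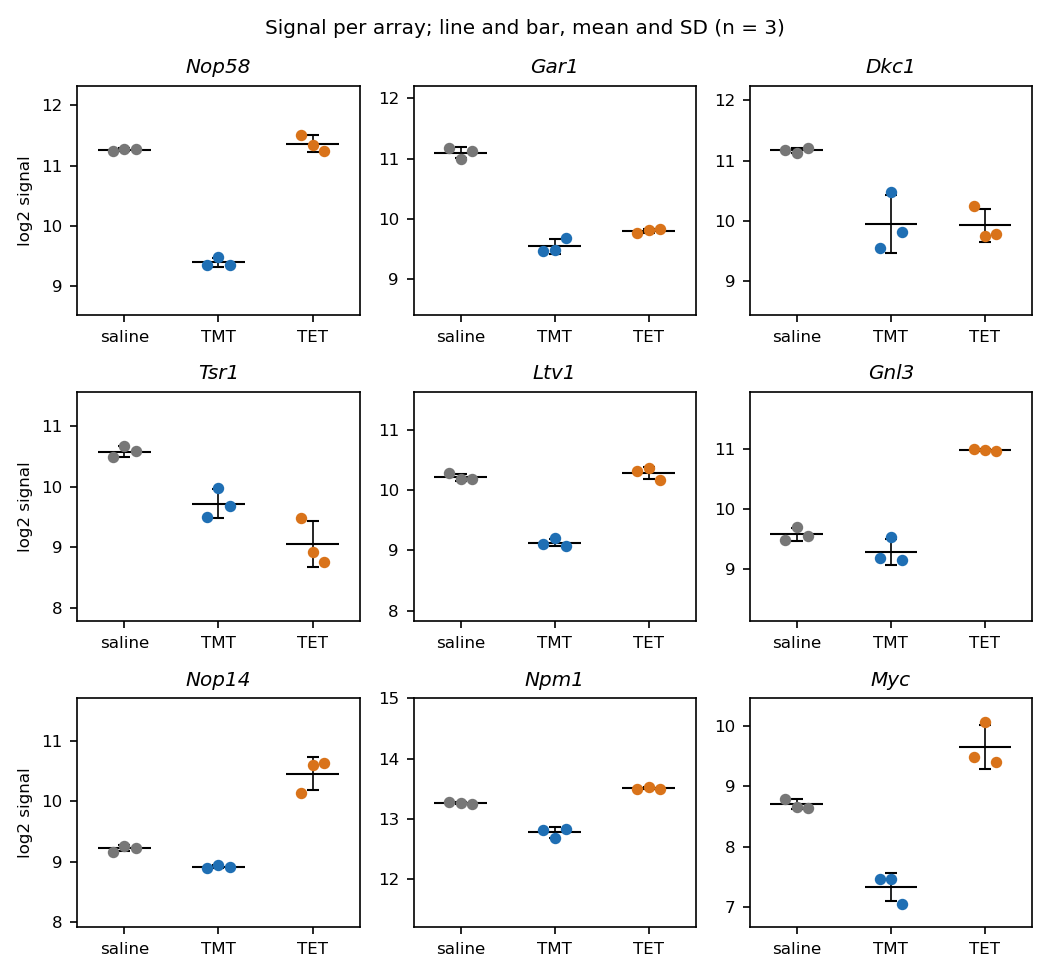
Log2 signal of 8 of the genes and of Myc on each array (points) in saline (grey), TMT (blue) and TET (orange), with the mean and SD of the 3 arrays; every panel spans the same range of log2 units. Nop58 and Ltv1 are low under TMT alone, Gar1 and Dkc1 under both compounds, Gnl3 and Nop14 are high under TET alone, and Npm1 and Myc lie below saline under TMT and above it under TET.

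Large subunit factors gave 9 falls of 13 under TMT, with a median of −0.46, and 4 falls and 1 rise under TET, with a median of −0.20. The 30.8% that fell under TET lay below the 41.3% of genes at or above the median signal. Nop16 read 8.70, 8.56 and 8.48 in saline, 7.21, 6.96 and 7.82 under TMT, and 8.10, 9.03 and 8.97 under TET. The TMT arrays lay below all others, and the TET arrays lay on both sides of saline. Nop16 fell 2.39-fold under TMT (−1.25, SE 0.26, adjusted p = 0.0048), its TET change had a wide interval (0.12, −0.47 to 0.71), and TET lay above TMT by 1.37 (adjusted p = 0.0016). The other probe set of Nop16 did not fall under TMT (0.01, adjusted p = 0.98 in the limma fit over all probe sets). Wdr12, Bop1 and Pes1 encode the 3 proteins of 1 complex that processes the large subunit RNA. Wdr12 read 8.94, 8.91 and 8.83 in saline, 7.83, 7.86 and 8.13 under TMT, and 8.01, 8.36 and 8.98 under TET, and fell 1.93-fold under TMT (−0.95, adjusted p = 0.0055). Under TET, Wdr12 did not pass (−0.44, adjusted p = 0.096), and without TET replicate 3 it did (−0.71, adjusted p = 0.0020). Its partners changed less. Pes1 fell by 0.29 under TMT (adjusted p = 0.021) and did not pass under TET (−0.18, adjusted p = 0.080), and the TMT call was lost without any saline array or without TMT replicate 1 or 3 (adjusted p 0.052 to 0.082). It passed under TET without TET replicate 3 (−0.22, adjusted p = 0.043). Bop1 did not pass under TMT (−0.29, adjusted p = 0.057) and fell under TET (−0.38, adjusted p = 0.010), a call lost after quantile normalization was applied again (−0.22, adjusted p = 0.096). Bop1 passed under TMT without TMT replicate 3 (−0.37, adjusted p = 0.038), TET replicate 2 (0.049) or TET replicate 1 (just under 0.05). It also passed under TMT after centring (0.046) and over genes at or above the median level (0.032). The same held with array weights (0.0024) and with the 6 arrays of that comparison alone (0.042).

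Noc3l, which escorts the large subunit precursor within the nucleus, read 8.93, 8.86 and 8.76 in saline, 7.80, 8.03 and 8.27 under TMT, and 9.10, 8.50 and 8.85 under TET. It fell 1.76-fold under TMT (−0.82, adjusted p = 0.0033), and its TET arrays overlapped saline (−0.03, 95% interval −0.39 to 0.33). Rrs1, which helps to bring the 5S RNA particle into the large subunit, and Nop2, a methyltransferase of the large subunit RNA, fell further under TET. Rrs1 read 12.50, 12.56 and 12.60 in saline, 12.02, 12.17 and 12.04 under TMT, and 11.67, 11.49 and 11.68 under TET, in 3 separate groups. Its changes were −0.48 under TMT (adjusted p = 0.0026) and −0.94 under TET (adjusted p = 1.7e-05), and TET lay below TMT by 0.46 (adjusted p = 0.0018). Nop2 read 9.17, 9.08 and 9.11 in saline, 8.66, 8.33 and 8.78 under TMT, and 8.16, 8.35 and 8.21 under TET. The organotin groups of Nop2 touched, and its changes were −0.53 and −0.88. The difference of −0.35 between them (adjusted p = 0.030) was lost without TMT replicate 1 or 3 or TET replicate 1 or 3 (adjusted p 0.064 to 0.12) and after quantile normalization was applied again (−0.16, adjusted p = 0.29).

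Gnl3, the GTPase nucleostemin, had the largest rise among the probe sets used. Gnl3 read 9.48, 9.70 and 9.55 in saline, 9.18, 9.54 and 9.15 under TMT, and 11.00, 10.97 and 10.96 under TET. The TET arrays lay within 0.04 of each other and above every other array, and Gnl3 rose 2.64-fold (1.40, SE 0.12, adjusted p = 5.8e-06). Under TMT it overlapped saline and did not pass (−0.29, adjusted p = 0.10), but passed without TMT replicate 2 (−0.41, adjusted p = 0.011). TET lay above TMT by 1.69 (adjusted p = 1.5e-06). The only probe set of Gnl3 was counted among those that may bind related transcripts. Its ending (_a_at) can mean other transcripts of the same gene. Of the remaining large subunit genes, Nle1 (−0.72), Ebna1bp2 (−0.43) and Noc2l (−0.36) fell under TMT, and their TET changes of −0.23, −0.20 and 0.15 did not pass. The Noc2l call was lost without saline replicate 1 or 3 or TMT replicate 1 or 2 (adjusted p 0.085 to 0.16). TET lay above TMT in Ebna1bp2 by 0.23 (adjusted p = 0.040), a call lost in 7 of 9 fits, all but those without saline replicate 3 or TET replicate 3 (adjusted p 0.054 to 0.11 in those 7). Rrp1b fell under TET (−0.88, SE 0.31, adjusted p = 0.040) with arrays at 8.11, 6.63 and 6.84, of which the first lay within the saline range of 7.81 to 8.21. That call was kept without saline replicate 3 or TET replicate 1 and lost in the other 7 fits (adjusted p 0.053 to 0.14). In the limma fit over all probe sets, the other probe sets of Rrp1b also fell under TET. The changes were −0.33 (adjusted p = 0.035) and, at a mean signal of 6.15, −1.54 (adjusted p = 3.8e-06). Neither passed under TMT (−0.09 and 0.25). Rrp1b did not pass under TMT (−0.46, adjusted p = 0.36), but did so without TET replicate 1 (adjusted p = 0.023), with array weights (0.049) and with the 6 arrays of that comparison alone (0.025). Nip7 did not pass under TMT (−0.24, adjusted p = 0.062) or TET (0.18, adjusted p = 0.097), and TET lay above TMT by 0.42 (adjusted p = 0.0021). Nip7 passed under TMT after centring (adjusted p = 0.044), over genes at or above the median level (0.031), with array weights (0.0014) and with the 6 arrays alone (0.042), and under TET after repeated quantile normalization (0.31, adjusted p = 0.015).

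The 4 general nucleolar proteins all fell under TMT and all lay higher under TET than under TMT. Among genes at or above the median signal, 22.1% fell under TMT and 25.1% were higher under TET than under TMT. Ddx21, an RNA helicase of the nucleolus, read 11.56, 11.41 and 11.38 in saline, 10.31, 9.91 and 10.43 under TMT, and 11.21, 11.39 and 11.58 under TET, with a TMT fall of 2.35-fold (−1.23, SE 0.15, adjusted p = 1.1e-04). Its TET change on this probe set was −0.06 (95% interval −0.38 to 0.27). Mybbp1a, a regulator of transcription in the nucleolus whose gene carries CACGTG near its start, read 11.34, 11.36 and 11.26 in saline, 10.11, 10.25 and 10.21 under TMT, and 11.11, 11.05 and 11.05 under TET. The 3 groups did not overlap, with TET close to saline: Mybbp1a fell 2.18-fold under TMT (adjusted p = 4.5e-06) and 1.18-fold under TET (adjusted p = 0.030). Ncl, which encodes the abundant RNA-binding protein nucleolin, read 12.59, 12.46 and 12.55 in saline, 12.02, 11.66 and 12.04 under TMT, and 12.70, 12.67 and 12.76 under TET. It fell 1.54-fold under TMT (−0.62, adjusted p = 0.0018) and did not pass under TET (0.18, adjusted p = 0.20), although its TET arrays lay above saline. Npm1, which encodes the chaperone nucleophosmin, read 13.29, 13.27 and 13.25 in saline, 12.82, 12.68 and 12.84 under TMT, and 13.50, 13.53 and 13.50 under TET. The groups of Npm1 did not overlap and lay on opposite sides of saline. Npm1 fell by 0.49 under TMT (SE 0.08, adjusted p = 0.0011) and rose by 0.24 under TET (SE 0.08, adjusted p = 0.030). The TET calls of these genes were the weak ones. That of Npm1 was lost without any saline array or without TET replicate 2 (adjusted p 0.059 to 0.085) and after centring (0.16, adjusted p = 0.14), and that of Mybbp1a without saline replicate 1 or 2 or TET replicate 2 or 3 (adjusted p 0.052 to 0.097) and after quantile normalization was applied again (−0.13, adjusted p = 0.26).

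Probe sets of 1 gene agreed more under TMT than under TET. Of the 81 probe sets of the 39 genes, 51 fell and 0 rose under TMT, and 35 fell and 6 rose under TET, tested over 34945 probe sets. The calls over all 34945 were not counted, so these counts have no background share of their own. Counted by gene, 22.1% of genes at or above the median signal fell under TMT and 41.3% under TET. In Wdr43 the brighter probe set changed by −0.23 under TET and the other by −1.86 (adjusted p = 2.5e-07), from 10.66, 10.70 and 10.70 in saline to 8.82, 8.80 and 8.85. Noc3l gave −0.03 and −1.96, Ddx21 −0.06 and −1.07, and the 3 probe sets of Nolc1 gave −0.74, −2.49 and −0.31. Under TMT the same probe sets gave −1.17 and −1.38 for Wdr43, −0.82 and −0.87 for Noc3l, −1.23 and −0.89 for Ddx21, and −1.19, −0.77 and −0.80 for Nolc1. So Wdr43, Noc3l, Ddx21 and Nolc1, which did not pass under TET on the brightest probe set, each had a probe set that fell. The additional probe sets of Heatr1, Noc2l and Nop16 held rises under TET (1.18, 1.00 and 0.90), where the brightest gave −0.05, 0.15 and 0.12. Among probe sets at or above the median signal (6.82), the probe sets of 4 of 23 genes (Ddx21, Dkc1, Noc3l and Wdr43) lay at least 1 log2 unit apart under TET and those of 1 (Nop16) under TMT. Over all 4138 genes with several such probe sets, the shares were 26.5% under TET and 3.96% under TMT, and those of the 23 genes were 17.4% and 4.35%. With the values averaged over the probe sets of each gene, 26 of the 39 fell under TMT. The TMT falls of Polr1a, Heatr1 (−0.14), Wdr75 (−0.36), Pes1 (−0.21), Noc2l (−0.10) and Ebna1bp2 (−0.18) were then lost, with adjusted p-values from 0.098 to 0.60. Between the compounds, the brightest probe set of Noc3l lay higher under TET (0.78, adjusted p = 0.0024), and its average over probe sets turned to −0.16. The single probe sets of Noc3l gave calls in both directions there, as did those of Wdr43 (0.94 and −0.48), Nolc1 (0.48 and −1.72) and Dkc1 (0.59 and −0.61), so that the direction between the compounds in these 4 genes depends on the probe set. On the probe set of Ddx21 that should bind no related transcript, the difference of TET from TMT was −0.18 and did not pass, against 1.18 on the brightest. The only such probe set of Wdr75 read 3.43 to 4.06 on all 9 arrays, far below the median level of 6.82, and gives no check of that gene. Under TET, averaging gave 21 falls and 4 rises: Wdr43 (−1.04), Noc3l (adjusted p = 1.8e-05), Ddx21 (−0.56), Nolc1 (−1.18) and Pes1 (−0.34) then fell, Heatr1 (0.56) and Noc2l (0.57) rose, and the calls of Bop1 (−0.23, adjusted p = 0.21) and Npm1 (0.17, adjusted p = 0.080) were lost.

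**Figure D4:**
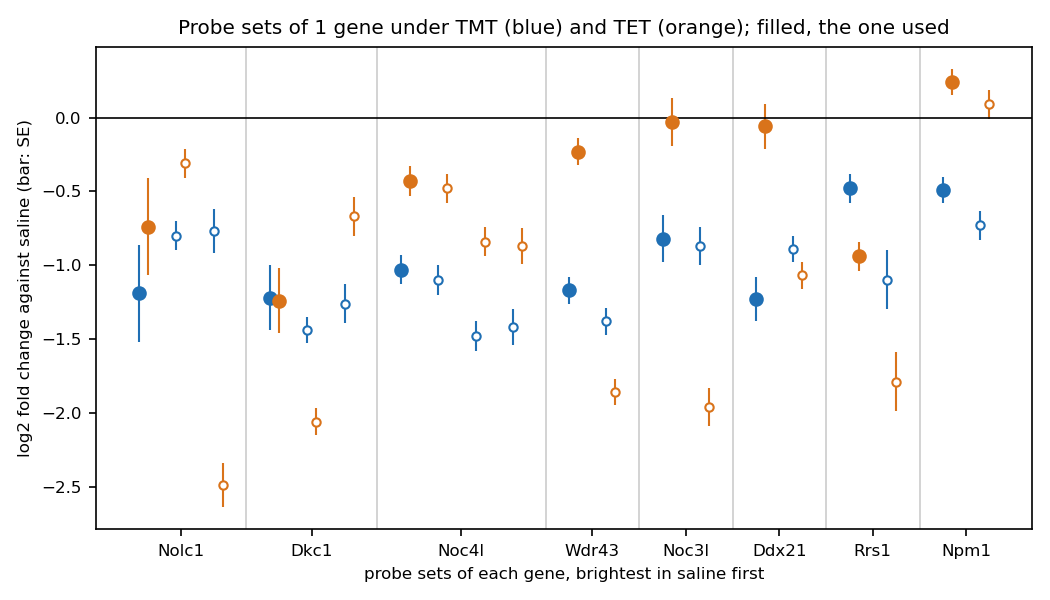
Log2 fold change against saline (error bars, SE) of every probe set of 8 genes under TMT (blue) and TET (orange), ordered within a gene by signal in saline; filled points are the probe sets used for the gene. The blue points of all 8 genes lie below 0, while the orange points of Wdr43, Noc3l, Ddx21, Dkc1 and Nolc1 are spread over 1 or more log2 units.

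Other genes of ribosome assembly were taken from a list of 122 measured genes that are no members of the 39. Of these, 55 fell and 4 rose under TMT (median −0.32), and 60 fell and 16 rose under TET (median −0.32). The falls were 45.1% under TMT and 49.2% under TET. Among genes at or above the median signal, 22.1% and 41.3% fell. These background shares also stand beside the smaller lists below. Among 13 genes of RNA polymerase I transcription, 4 fell and 3 rose under TMT and 4 fell and 2 rose under TET. Rrn3, the factor that brings the polymerase to the ribosomal DNA, fell by 0.76 under TMT (adjusted p = 0.011) and by 1.76 under TET (adjusted p = 3.2e-05). Twistnb, a polymerase I subunit, fell by 1.20 and 0.90, and Polr1e, another, by 0.31 and 0.85. Taf1d, a subunit of the promoter selectivity factor, fell under TMT (−0.63, adjusted p = 1.5e-04) and rose under TET (1.00, adjusted p = 3.9e-06). Of 8 genes of snoRNP assembly, 4 fell and 0 rose under TMT and 5 fell and 2 rose under TET. Znhit6 fell by 0.81 and 1.08 and Znhit3 by 0.54 and 0.66, both box C/D assembly factors, while the helicase gene Ruvbl2 changed by 0.08 under TMT without passing and fell by 0.94 under TET. Shq1, the chaperone of dyskerin, fell by 0.29 under TMT and rose by 0.58 under TET.

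Of 42 other small subunit genes, 18 fell and 0 rose under TMT and 22 fell and 4 rose under TET. Pwp2 fell by 0.96 and 1.95 and Wdr36 by 0.75 and 1.42, both of the early small subunit particle. Nop9 fell by 1.32 under TET and Utp14a rose by 1.19, and under TMT neither passed (−0.14 and −0.25). Of 46 other large subunit genes, 23 fell and 1 rose under TMT and 20 fell and 8 rose under TET. Rrp15 fell by 1.75 under TMT and 1.32 under TET, and the helicase gene Ddx51 fell by 0.73 and 1.22. Nol9, an RNA kinase, fell by 0.47 and 1.65, and Tex10 rose under both (0.64 and 1.56). Of 13 genes of the RNA exosome and its cofactors, which trims the precursor, 6 fell and 0 rose under TMT and 9 fell and 0 rose under TET, among them Mphosph6 (−1.07 and −1.68) and Exosc8 (−0.38 and −0.73). Exosc3 and C1d fell under TET (−0.73 and −0.86) and did not pass under TMT (0.05 and 0.12).

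Neighbouring gene groups had smaller shares of falls than the set under TMT, while under TET some lay close to it. Of 20 subunits of RNA polymerases II and III, 5 fell and 3 rose under TMT (median 0.03), and 9 fell and 1 rose under TET (median −0.24). Among them, Polr2d (−1.22), Polr3k (−1.30) and Polr3e (−0.86) fell under TET and did not pass under TMT, and Polr2g fell under TMT (−0.76) and did not pass under TET. Of 44 cytosolic ribosomal protein genes, chosen by symbol, 18 fell and 0 rose under TMT (median −0.23), and 1 fell and 3 rose under TET (median 0.09). Of 76 mitochondrial ribosomal protein genes, 10 fell and 10 rose under TMT, and 29 fell and 5 rose under TET. These counts describe the lists, and no test compared them with the 39 genes.

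**Figure D5:**
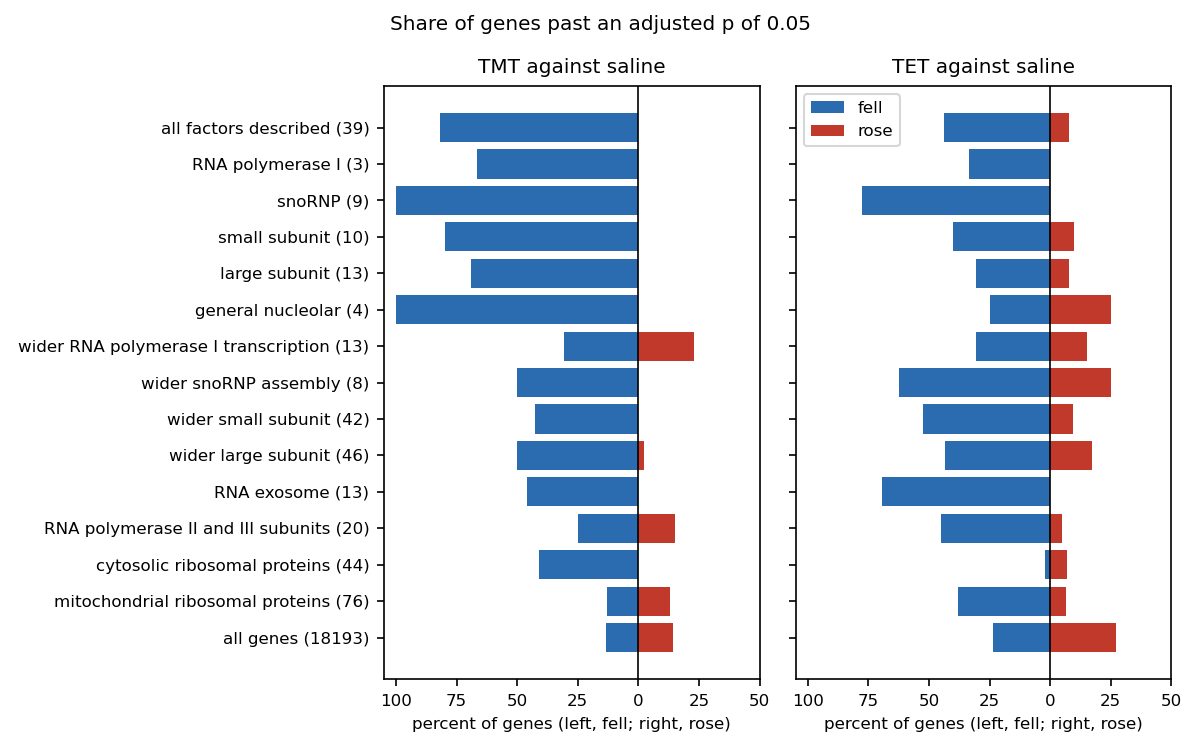
Percent of the measured genes of each list that fell (left of 0) or rose (right of 0) with an adjusted p under 0.05, under TMT (left panel) and TET (right panel), with the number of genes in brackets. The 39 factors reach 82.1% falls and 0 rises under TMT, against 13.4% and 14.3% of all genes, and 43.6% falls under TET, against 23.4% of all genes and 41.3% of genes at or above the median signal, which are not drawn.

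Of 8 genes of the MYC network, 1 fell and 5 rose under TMT, and 2 fell and 3 rose under TET. Myc read 8.80, 8.66 and 8.65 in saline, 7.47, 7.46 and 7.06 under TMT, and 9.49, 10.07 and 9.41 under TET. Its 3 groups did not overlap and lay on opposite sides of saline. Myc fell 2.60-fold under TMT (−1.38, SE 0.18, adjusted p = 2e-04) and rose 1.93-fold under TET (0.95, SE 0.18, adjusted p = 0.0013), and TET lay 5.02-fold above TMT (adjusted p = 2.9e-06). Max, the partner of MYC, which was picked out after its values were seen, changed by −0.36 under TMT without passing (adjusted p = 0.10) and rose by 0.85 under TET (adjusted p = 8.1e-04). Mnt, a repressor that competes with MYC for MAX, rose under both, 7.23-fold under TMT (2.85, SE 0.09) and 5.35-fold under TET (2.42, SE 0.09). Mxd4, another such repressor, and Mlx, a related partner protein, rose under TMT (1.01 and 0.79) and fell under TET (−0.52 and −0.54). The 7 genes of the set with CACGTG near the start all fell under TMT, by 0.29 (Pes1) to 1.17 (Wdr43), where 32 of the whole set of 39 fell. Under TET, 3 of these 7 fell (Tsr1, Nop2 and Mybbp1a) and 4 did not pass. Whether MYC has a part in these changes was not tested.

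The arrays differed in ways that touch these results. The interquartile range of the signals was 3.45 to 3.55 on the TET arrays and 3.78 to 3.88 on the others, and genes above the median signal fell more often under TET, as given above; the part of this in the TET counts was not tested. Between a saline and a TET array, 1.44% to 2.11% of all probe sets held exactly the same value to the last deposited digit, and between 2 TET arrays 1.19% to 1.43% did. Between a TMT and a TET array it was 1.34% to 2.07%. Pairs without a TET array shared more: 3.32% to 3.80% within saline, 2.82% to 4.03% within TMT and 2.53% to 3.54% between saline and TMT. The cause of these shares was not tested. All 9 macrophage markers lay at or above the median signal in every group, with a mean level per array of 12.67 to 12.72 in saline, 12.49 to 12.79 under TMT and 12.44 to 12.57 under TET. Of these 9, 2 fell and 2 rose under TMT, and 5 fell and 1 rose under TET. Of 7 neutrophil markers, 4 fell under each compound, and their mean level per array was 7.57 to 7.74 in saline, 7.05 to 7.33 under TMT and 7.07 to 7.20 under TET. S100a9 had the largest fall among them (−1.70 under TMT and −1.66 under TET). All markers of B cells, T and NK cells, dendritic cells, mast cells, erythroid cells and progenitors lay below the median signal in every group, with mean levels per array of 4.43 to 5.88. At these low levels, 3 of 4 B cell markers and 2 of 4 T and NK cell markers rose under TET, and Cd3e fell under TMT. Stromal markers had mean levels of 6.84 to 7.29, with 1 of 6 risen under TMT and 3 risen and 1 fallen under TET. The part of other cells in the changes was not tested, and in bulk RNA fewer cells of a type and less RNA per cell cannot be told apart.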

How the data were processed

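The authors deposited log2 signals of 45037 probe sets on 9 arrays, made with RMA and affy (no version given), per the submitters' processing notes. The log2 base was taken from the values. Per the labels' protocols, 50 ng of RNA was amplified with a Nugen kit. Precision is limited by having 3 arrays a group.

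Probe sets were named by the platform annotation. Of the 45037, 34945 named 1 gene, 932 several and 9160 none, and the last 2 kinds were left out. Polr1f, Polr1g and Polr1h were matched by older symbols. Probe sets with names ending in _s_at, _x_at or _a_at were counted as those that may bind related transcripts. For _a_at these may be other transcripts of the same gene.

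limma 3.58.1 in R 4.3.3 fitted 1 mean per group to all 9 arrays (6 residual degrees of freedom, moderation with prior degrees of freedom 3.99). The Benjamini-Hochberg adjustment of the two-sided p-values ran over 18193 genes. With groups of 3, no exact permutation p can be under 0.1, so none is given. The fit was tested on simulated data. Replicate numbers were not used as pairs in this fit, since no source used here says whether they link the groups. The correlation of deviations of same-numbered arrays was −0.15 to 0.31.

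The genes and lists were chosen with earlier results of these data known. Array values are printed, per class, for the 3 genes with the largest change in each comparison with saline among those that passed without overlap, for genes called in opposite directions, and for Myc; those of Nolc1 and Rrp1b were added after their values were seen. Of each wider list, up to 4 genes with the smallest adjusted p are named. The alternatives were each array left out, a replicate block, centring, repeated quantile normalization, mean over probe sets, probe sets that may bind related transcripts left out, genes at or above the median level, array weights, trended robust moderation, the arrays of a comparison alone, and a 1.5-fold minimum.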

Additional observations from a re-analysis of the deposited data

How the results depend on the processing

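Leaving out 1 array at a time, the set had 26 to 34 falls and 0 rises under TMT (3971 to 5522 of all genes called), 14 to 18 falls and 2 to 3 rises under TET (7540 to 9372), and 20 to 23 genes higher and 4 to 5 lower for TET against TMT (8006 to 9232). Of the calls, 26 of 32 under TMT, 16 of 20 under TET and 24 of 28 between the compounds were kept in all 9 of these fits. Replicate numbers are shared by the groups, and no source used here says whether they link them. Deviations of same-numbered arrays correlated at 0.02 to 0.31 for TMT and saline. They correlated at −0.13 to −0.04 for TET and saline, and at −0.15 to 0.15 for TET and TMT. With 3 arrays a group these values cannot decide whether the arrays were paired. With the replicate number as a block, 30 fell and 0 rose under TMT, 15 fell and 2 rose under TET, and 22 were higher and 5 lower for TET against TMT, with 4859, 8956 and 9119 of all genes called. With a 1.5-fold minimum, 21 fell under TMT (3180 of all genes) and 11 under TET (5383), and 15 were higher and 2 lower for TET against TMT (5540). Array weights called 8756 of all genes under TMT. Without probe sets that may bind related transcripts, 1 gene rose under TET of the 35 then left. Gnl3 and Npm1, which rose in the main fit, were not among those 35. Over genes at or above the median level, 6066 were called under TET and 6270 for TET against TMT. After quantile normalization was applied again, 3 genes were lower for TET against TMT. Falls made up 46.1% of all calls under TET, 56.1% after centring and 63.7% over genes at or above the median level.

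Of the changes that had passed, the sign turned in that of Wdr75 under TMT and in those of Wdr75, Noc3l and Ddx21 for TET against TMT, all 4 by the choice of probe sets, though both of Wdr75 rest on a probe set at 3.43 to 4.06 on every array and show no reversal; the other signs that turned had not passed. Under TMT, Polr1c ran from −0.11 to 0.01 with 1 array left out and gave 0.02 with repeated quantile normalization, and Wdr75 gave 0.02 without probe sets that may bind related transcripts. Under TET with 1 array left out, Polr1c ran from −0.03 to 0.13, Rrp12 from −0.03 to 0.14, Wdr75 from −0.18 to 0.03, Nop16 from −0.05 to 0.42, Noc3l from −0.17 to 0.12 and Ddx21 from −0.15 to 0.04. Under TET, centring gave Polr1c −0.03, Rrp12 −0.03 and Ltv1 −0.01. Repeated quantile normalization gave Heatr1 0.09, Wdr75 0.06, Noc3l 0.16 and Ddx21 0.06. The mean over probe sets gave Polr1c −0.01 and Heatr1 0.56, which passed (adjusted p = 0.0038), and leaving out related probe sets gave Polr1c −0.06. For TET against TMT with 1 array left out, Polr1a ran from −0.01 to 0.16, Nop56 from −0.01 to 0.07 and Dkc1 from −0.22 to 0.24. For that comparison, the mean over probe sets gave Polr1a −0.02, Nop56 −0.18, Nolc1 −0.26, Pes1 −0.12 and Noc3l −0.16. Leaving out related probe sets gave Nop56 −0.39, which passed (adjusted p = 0.031), Wdr75 −0.25 and Ddx21 −0.18. Centring gave Nop56 −0.02, repeated quantile normalization Dkc1 0.06 and Bop1 0.05, and array weights Dkc1 0.27. The cause was not tested. No value marks the background of the arrays.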
